A study of Mus musculus with 13 samples.

Results

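In-frame T cell receptor (TCR) α rearrangements with a stop codon were described in the repertoire of rescued regulatory T (Treg) cells. A clonotype was 1 deposited combination of V gene, J gene and nucleotide sequence of the CDR3, the hypervariable junction of the chain. A stop clonotype joined a TRAV to a TRAJ gene, kept the reading frame (a CDR3 length divisible by 3) and had at least 1 stop codon in the CDR3. In all, 459 of 90369 clonotypes met this rule. They were compared with 78425 functional clonotypes (in frame, no stop) and 11364 out-of-frame clonotypes, and the remaining 121 rows joined other segments.

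All 13 samples came from male C57BL/6 mice of genotype Foxp3LSL/y Cd4creERT2, in which Foxp3 is silenced by a removable cassette in every cell. On postnatal day 14 they were given 4-hydroxytamoxifen (4-OHT), which activates the creERT2 recombinase in cells that express Cd4, and Foxp3 is restored where it then acts. The sort took TCRβ+CD4+GFP+Thy1.1- cells of pooled spleen and lymph node, where GFP reports the restored allele and Thy1.1 the silenced one. Samples were taken 1.5 months (n = 2, mice 8 weeks old), 3 months (n = 4, 3.5 months old), 5 months (n = 2, 5.5 months old) or 7 months (n = 5, 7.5 months old) after treatment. No untreated or wild-type TCR library was analysed here, and the tables hold no other transcripts by which the sorted cell type could be checked. The labels do not say that the replicates came from separate mice, so the p-values measure the spread between these samples.

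The TCR α chain gene is assembled in developing thymocytes by joining a V to a J segment. The joined ends are trimmed, and bases are added without a template by terminal deoxynucleotidyl transferase, so that many joints lose the frame or gain a stop codon. A cell can rearrange both of its α alleles and can replace one joint by a further V-to-J joint, so a T cell with a functional α chain can also carry a nonproductive one. Messenger RNAs with an early stop codon are known targets of nonsense-mediated decay.

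Examples of large stop clonotypes are shown first. They are the stop clonotype with the highest share of counts at each time point, in the order 1.5, 3, 5 and 7 months. The last is the largest one without bases between the V and J parts as marked in the deposited tables. They run 5′ to 3′ from the first codon of the CDR3, and capitals mark the stop codon.
TRAV12D-1 to TRAJ17: tgtgctctgTAGctaactttt
TRAV1 to TRAJ27: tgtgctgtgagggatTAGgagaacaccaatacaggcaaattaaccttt
TRAV6-6 to TRAJ22: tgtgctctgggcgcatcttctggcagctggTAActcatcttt
TRAV2 to TRAJ23: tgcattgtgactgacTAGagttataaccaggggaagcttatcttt
TRAV9N-4 to TRAJ4: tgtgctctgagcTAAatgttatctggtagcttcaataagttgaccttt
The TRAV12D-1 clonotype had 183 counts in replicate 2 at 1.5 months, which was 0.0291% of the α-chain counts of that sample (Wilson 95% interval 0.0252% to 0.0337%). The TRAV1 clonotype had 179 counts in replicate 4 at 3 months (0.0293%). The TRAV6-6 clonotype had 95 counts in replicate 1 at 5 months (0.0163%). The TRAV2 clonotype had 248 counts in replicate 1 at 7 months, and its 0.0398% (Wilson 95% interval 0.0351% to 0.0451%) was the highest share of any stop clonotype. The TRAV9N-4 clonotype had 87 counts in replicate 2 at 5 months. Its stop codon lay in the deposited J part but could not be aligned to the germline TRAJ4, so it may not be of germline origin. The first stop lay at codons 4 to 6 in all of these but the TRAV6-6 clonotype, where it was codon 11, in the J part, and a functional clonotype with 135 counts in the same sample differed from it by 1 base.

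Many other stop clonotypes had 1 or a few counts and a stop inside the germline J sequence, most often in TRAJ12. The germline J genes below, from the GENCODE M21 transcripts of GRCm38, are the 4 called higher in stop than in functional clonotypes with library totals as the scale, of which TRAJ22 falls below equal use with 2 other scalings. Capitals mark the germline codon that was most often replaced by a stop codon in TRAJ12, TRAJ33 and TRAJ26, and in TRAJ22 the tryptophan codon next to the most frequent change.
TRAJ12: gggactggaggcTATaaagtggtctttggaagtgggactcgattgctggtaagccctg
TRAJ33: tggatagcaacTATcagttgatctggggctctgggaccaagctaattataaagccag
TRAJ26: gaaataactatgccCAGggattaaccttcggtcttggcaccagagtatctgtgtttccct
TRAJ22: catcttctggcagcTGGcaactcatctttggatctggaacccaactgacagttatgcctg
All 4 lie on the plus strand of chromosome 14 of GRCm38, at chr14:54206553-54206610 for TRAJ12, chr14:54185358-54185414 for TRAJ33, chr14:54194490-54194549 for TRAJ26 and chr14:54197248-54197307 for TRAJ22. Each is a single J gene segment of the Tcra locus. A TRAJ12 clonotype with the TAT codon replaced had 14 counts in replicate 1 at 7 months, and one of 2 counts in replicate 1 at 3 months also differed from the germline in its last base.
TRAV4D-4 to TRAJ12: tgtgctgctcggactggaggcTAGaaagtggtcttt
TRAV7D-2 to TRAJ12: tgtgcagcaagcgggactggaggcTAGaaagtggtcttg

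Each sample held few stop clonotypes, and most had a single count. The α-chain counts per sample ranged from 509669 to 936685, in 5532 to 9103 clonotypes. Stop clonotypes numbered 36 and 42 at 1.5 months, 35, 37, 41 and 41 at 3 months, 28 and 28 at 5 months, and 35, 31, 33, 31 and 41 at 7 months. They were 0.395% to 0.600% of the α-chain clonotypes of a sample, and out-of-frame clonotypes were 11.8% to 14.3%. Their counts numbered 146 to 636 per sample, or 0.0219% to 0.104% of the α-chain counts, where 3 counts, the floor used here, correspond to 0.000320% to 0.000589%. Out-of-frame clonotypes held 5.80% to 7.67% of the counts. TRAJ32 alone had 1916 out-of-frame clonotypes against 1941 functional ones. TRAJ21, with the next most, had 528 against 4269. The cause was not tested, and every comparison with out-of-frame clonotypes below includes those of TRAJ32. Over all samples, the 459 stop clonotypes held 4559 counts, and the 15 largest of them held 44.6% of these. In these sorted bulk samples, fewer cells with a given rearrangement and less of its RNA per cell cannot be told apart.

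**Figure D1:**
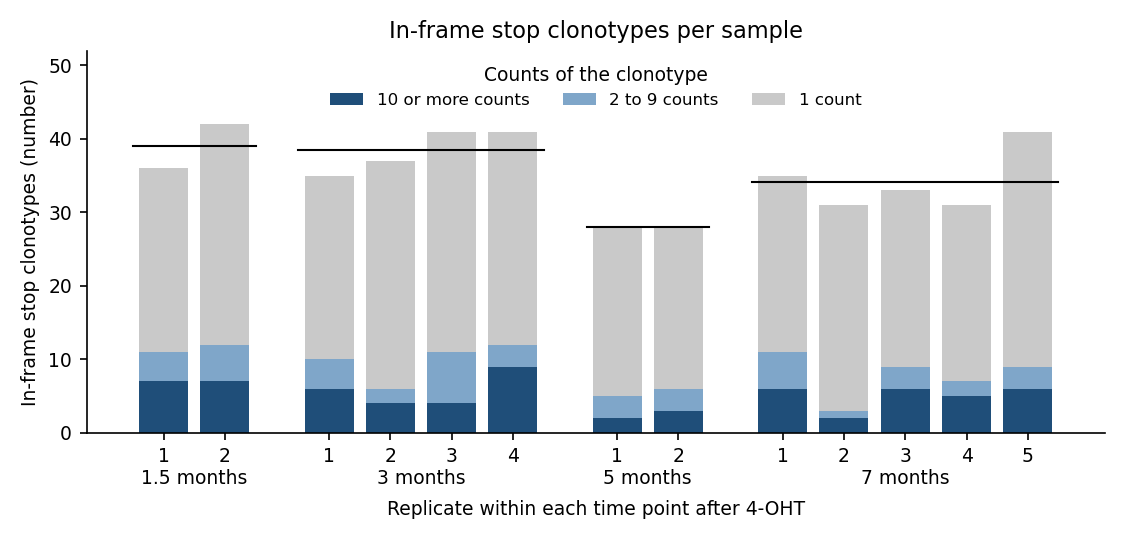
Number of in-frame stop clonotypes in each of the 13 samples, with bars divided by the counts of the clonotype and a line at the mean of each time point after 4-OHT. Clonotypes of 1 count form the largest part of every bar, and clonotypes of 10 or more counts number 2 to 9 per sample.

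Stop clonotypes were far smaller than functional ones. Of the 459, 347 (75.6%) had 1 count, 45 (9.80%) had 2 to 9 counts and 67 (14.6%) had 10 or more, and the last group held 88.6% of the counts. Of functional clonotypes 17.4% had 1 count and 73.5% had 10 or more. For out-of-frame clonotypes the shares were 25.7% and 57.7%. The mean count per stop clonotype ran from 5.10 in replicate 2 at 7 months to 17.7 in replicate 1 at 3 months. The mean count per functional clonotype ran from 69.3 to 155, so the classes did not overlap. On the log2 scale of the mean count per sample, stop clonotypes were at 3.15 ± 0.651 (SD, n = 13), functional ones at 6.60 ± 0.284 and out-of-frame ones at 5.61 ± 0.228. The within-sample difference from functional clonotypes was -3.45, or 10.95-fold lower, in 13 of 13 samples (exact sign-flip permutation p = 0.000244, the smallest that 8192 sign flips allow, two-sided, Benjamini-Hochberg adjusted p over 6 comparisons = 0.000488). The difference from out-of-frame clonotypes was -2.47, or 5.53-fold lower, also in 13 of 13 samples (exact permutation p = 0.000244, adjusted p = 0.000488). Among clonotypes of 10 or more counts the fold was smaller, 2.32-fold lower than functional and 1.47-fold lower than out-of-frame clonotypes, again in 13 of 13 samples each (exact permutation p = 0.000244 for both).

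**Figure D2:**
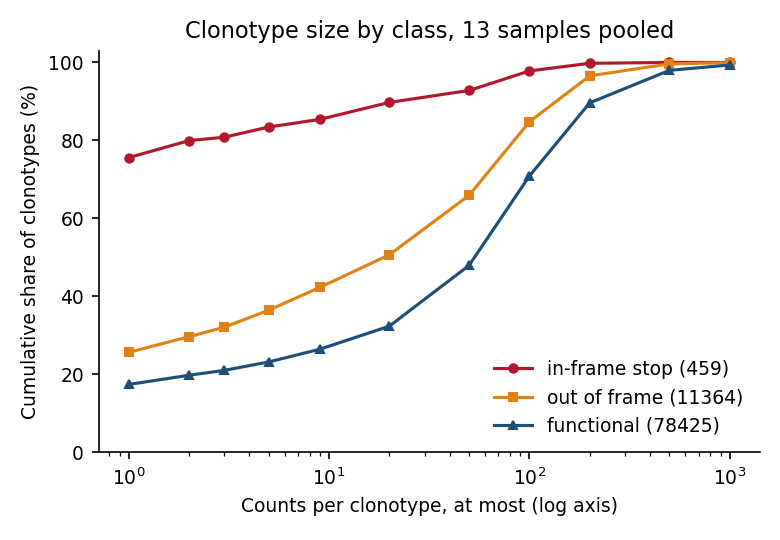
Cumulative share of clonotypes (%) against counts per clonotype on a log axis, for in-frame stop, out-of-frame and functional clonotypes of the 13 samples pooled. At 1 count the curves stand at 75.6%, 25.7% and 17.4%.

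The first stop codon lay most often in the J part of the CDR3, but its place differed with the size of the clonotype. The V and J parts are those the deposited tables mark as matched to a germline segment, and the bases between them are called inserted here. Of all 459, 273 (59.5%) had the first stop wholly in the J part and 56 (12.2%) in the V part. In 64 (13.9%) the codon was made of inserted bases alone, in 64 it combined inserted with V or J bases, and in 2 it lay where the V and J parts overlapped. Among the 347 clonotypes of 1 count, 239 stops (68.9%) were in the J part, and 56 (16.1%) touched an inserted base. Among the 67 of 10 or more counts, 49 (73.1%) touched an inserted base, 13 were in the J part, 4 were in the V part and 1 was in an overlap. The 45 of 2 to 9 counts were between the others, with 23 stops (51.1%) that touched an inserted base and 21 (46.7%) in the J part. These counts pool the samples and carry no test.

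**Figure D3:**
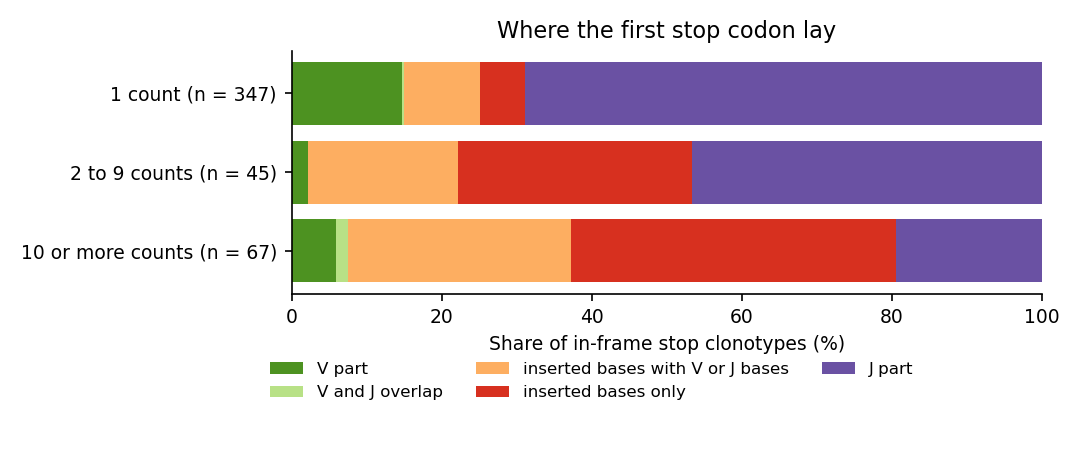
Share (%) of in-frame stop clonotypes with the first stop codon in the V part, in a V and J overlap, in inserted bases with or without V or J bases, or in the J part, for 3 classes of counts per clonotype. Stops that touch an inserted base are 16.1% of clonotypes of 1 count and 73.1% of those of 10 or more counts.

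Position along the CDR3 divided the same classes. In clonotypes of 10 or more counts the median first stop was codon 6, and 51 of 67 lay at codons 4 to 6, where V and J meet. In clonotypes of 1 count the median was codon 8, and 238 of 347 stops lay at codon 7 or later. Codon 1, which encodes the conserved cysteine that opens the CDR3, was the stop in 40 clonotypes, and each of these had 1 count. All 67 clonotypes of 10 or more counts began with cysteine, and 66 of them ended with the phenylalanine or tryptophan that closes the CDR3. A single stop codon was present in 448 clonotypes, 9 had 2, and 2 clonotypes of 1 count each had 3 and 6.

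TAG was the most frequent stop codon, in 212 clonotypes (46.2%), followed by TGA in 146 (31.8%) and TAA in 101 (22.0%). The order depended on the place. TAG made up 147 of 273 stops in the J part (53.8%) and 33 of 64 made of inserted bases alone (51.6%), while TGA made up 43 of 56 in the V part (76.8%). Among clonotypes of 10 or more counts TGA (28) and TAG (23) were closer to each other, with 16 TAA.

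The stop codons in the V or J part were compared with the germline codon at the same place, which could be aligned for 324 clonotypes. In 283 of them the stop differed from the germline codon by 1 substitution, and 254 of these 283 had 1 count. T-to-G was the most frequent change, with 85 cases, then C-to-T with 46, C-to-A with 42, G-to-T with 39 and T-to-A with 34. In a substitution the germline base stands first, then its position from the first base of the J gene, then the base of the clonotype. TRAJ12 T15G, which turns the marked TAT into TAG, was found in 69 clonotypes and in all 13 samples. Of these 69, 64 had 1 count, and the largest had 14. TRAJ26 C15T followed with 15 clonotypes in 10 samples, all of 1 count, and TRAJ26 G18T with 11, the largest of 4 counts. TRAJ13 C18T and TRAJ22 C18T were found in 9 clonotypes each. The TRAJ22 change was the only one of these with 2 clonotypes of 10 or more counts, which had 95 and 21. TRAJ33 T14G was found in 8 clonotypes, all of 1 count. In the V part, counted from the first base of the CDR3, T3A and C3A turned the cysteine codon into TGA in 27 and 5 clonotypes, all of 1 count.

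Many stop clonotypes lay close to a larger functional clonotype of the same sample. A larger functional clonotype within 2 base mismatches existed for 292 of 459 (63.6%). The share was 71.8% for stop clonotypes of 1 count and 28.4% (19 of 67) for those of 10 or more. For functional clonotypes it was 44.7% over all, 50.1% at 1 count and 40.0% at 10 or more. At 2 to 9 counts it was lower in stop than in functional clonotypes, 53.3% against 72.5%. Within 1 mismatch it was also lower in stop clonotypes over all, 17.6% against 21.7%. In the processing by the authors, a clonotype 1 or 2 mismatches from a larger one was dropped where the ratio of their sizes was under 0.05, multiplied by itself for the second mismatch. In the deposited tables the lowest ratio of a stop clonotype to such a neighbour was 0.0517 at 1 mismatch (81 clonotypes) and 0.00253 at 2 mismatches (211 clonotypes), just above those limits. The part of sequence errors in these clonotypes was not tested.

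TRAJ12 stood out among the clonotypes at 2 mismatches. It accounted for 67 of the 211, and in 53 of the 67 the mismatches were T15G and T27G, both T-to-G changes, with T27 the last base of the CDR3 in this gene. Of these 53, 49 had 1 count. In 52 of the 53 the second change turned the closing phenylalanine codon TTT into TTG, for leucine, and the other ended in ATG. Of the 69 TRAJ12 clonotypes with T15G, which used 33 V genes, 54 ended in TTG and 11 in TTT. Of 3149 functional TRAJ12 clonotypes 43 ended in TTG, and 25 of these had 1 count. In the other J genes, 10 of 144 clonotypes at 2 mismatches had their second mismatch in the last codon.

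Stop clonotypes also lay close to one another. In 16 groups, members of the same sample were linked by 2 or fewer mismatches, and these groups held 44 of the 459 clonotypes. The largest group had 9 members, all TRAV3D-3 to TRAJ12 in replicate 3 at 3 months, with 18, 16, 5, 5, 4, 4, 3, 1 and 1 counts. They are 9 rows of the table but share the same joint and stop, as its first 3 show.
18 counts: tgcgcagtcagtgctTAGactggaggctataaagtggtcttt
16 counts: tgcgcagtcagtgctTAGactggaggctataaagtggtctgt
5 counts: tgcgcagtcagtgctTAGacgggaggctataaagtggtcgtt
With 1 clonotype kept per group, 431 remained, 62 of them with 10 or more counts. A larger functional clonotype within 2 mismatches was absent for 167 of the 459, of which 48 had 10 or more counts, 98 had 1 count, and 86 had a stop that touched an inserted base.

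Stop clonotypes had more inserted bases than functional ones over all clonotypes, but not distinguishably so among those of 1 count, which are 347 of the 459. The mean per sample was 3.15 ± 0.926 inserted bases (SD, n = 13, range 1.50 to 4.71) in stop clonotypes and 2.16 ± 0.0508 (range 2.06 to 2.25) in functional ones. It was higher in stop clonotypes in 12 of 13 samples, by 0.996 bases (exact permutation p = 0.00171, adjusted p = 0.00256). Replicate 2 at 5 months, at 1.50 bases, was the sample in which it was lower. Out-of-frame clonotypes had 2.51 ± 0.158 inserted bases. Stop clonotypes exceeded these by 0.647 bases in 9 of 13 samples (exact permutation p = 0.0276, adjusted p = 0.0331). Among clonotypes of 1 count only, an alternative chosen after seeing the data, the mean was 2.99 ± 1.22 in stop, 2.63 ± 0.179 in functional and 3.02 ± 0.458 in out-of-frame clonotypes (SD, n = 13). There stop clonotypes differed by 0.364 bases from functional ones (exact permutation p = 0.318) and by -0.0300 from out-of-frame ones (exact permutation p = 0.937), and were higher in 6 of 13 samples in each comparison. The excess over out-of-frame clonotypes was 1.52 bases with 10 or more counts (exact permutation p = 0.00269). It was 2.44 without stop clonotypes within 2 mismatches of a larger functional one (exact permutation p = 0.00171). That removal left the other classes whole, so the 2.44 does not compare like with like and nothing is concluded from it. Single-count clonotypes with very long inserts carried part of both differences. Those of 73 and 70 inserted bases, in replicate 2 at 1.5 months and replicate 2 at 7 months, raised the means of these samples from 3.05 to 4.71 and from 2.50 to 4.68. Without the clonotypes of over 20 inserted bases (4 stop, 81 functional and 40 out-of-frame), an alternative chosen after seeing the data, stop clonotypes exceeded functional ones by 0.622 bases in 11 of 13 samples (exact permutation p = 0.00537) and out-of-frame ones by 0.378 bases in 10 of 13 (exact permutation p = 0.0449). Without replicate 2 at 1.5 months, replicate 2 at 7 months or replicate 4 at 7 months, the difference of 0.647 from out-of-frame clonotypes was 0.507, 0.494 or 0.592, respectively, and its exact permutation p was 0.0552, 0.0552 or 0.0547. With clonotypes of 10 or more counts only, stop clonotypes had 3.81 ± 1.34 and functional ones 2.04 ± 0.0574 inserted bases (SD, n = 13), a difference of 1.77 bases (exact permutation p = 0.000977). The CDR3 was 13.6 ± 0.277 codons long in stop and 13.5 ± 0.0230 in functional clonotypes, a difference of 0.116 codons that was not distinguishable from the spread between samples (exact permutation p = 0.147). With 10 or more counts the difference in length was 0.630 codons (exact permutation p = 0.0203).

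The share of stops among in-frame clonotypes was read against the number of inserted bases, with samples pooled and Wilson 95% intervals, which cover counting error only. Over all clonotypes it was 0.493% without inserted bases (120 of 24334, interval 0.413% to 0.589%), 0.421% at 4 bases (interval 0.306% to 0.580%), 1.08% at 5 (interval 0.817% to 1.42%) and 1.27% at 7 or more (interval 0.920% to 1.74%). Among clonotypes of 10 or more counts it was 0.0270% without inserted bases (5 of 18540, interval 0.0115% to 0.0631%), 0.0649% at 4 (interval 0.0253% to 0.167%), 0.572% at 5 (18 of 3149, interval 0.362% to 0.902%), 0.389% at 6 (interval 0.178% to 0.846%) and 0.325% at 7 or more (interval 0.149% to 0.708%). From 0 to 4 inserted bases the intervals of neighbouring classes overlapped in both series, and those at 4 and 5 bases did not overlap in either. At 7 or more bases the interval for 10 or more counts overlapped that at 4. Of the large stop clonotypes 7.46% had no inserted base and 50.7% had 4 or more, against 32.1% and 22.0% of functional clonotypes of that size.

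**Figure D4:**
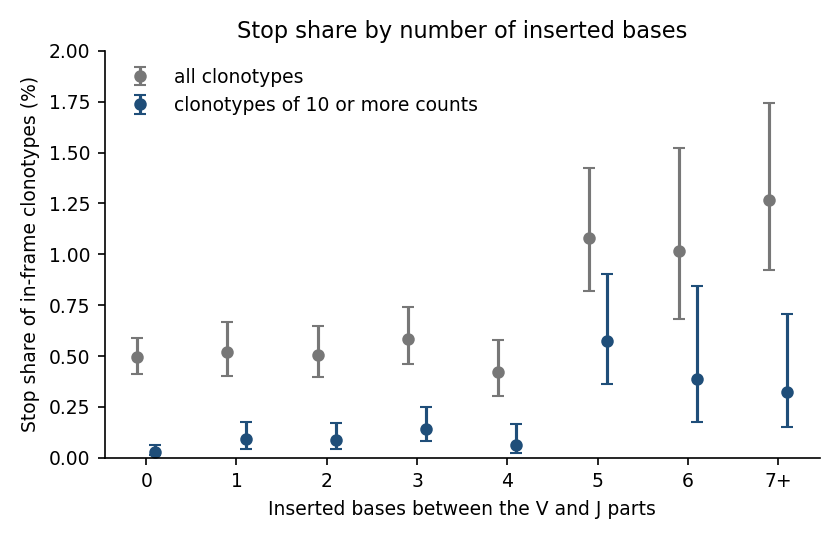
Share (%) of in-frame clonotypes with a stop codon against the number of inserted bases (7 or more in the last class), for all clonotypes and for those of 10 or more counts, 13 samples pooled. Points are shares with Wilson 95% intervals, and both series step up from 4 to 5 inserted bases, to 1.08% and 0.572%.

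For J gene use every clonotype counted once, whatever its size, and both classes came from the same samples. By edgeR's quasi-likelihood test with library totals as the scale, 12 of 43 J genes tested had an adjusted p under 0.05 (27.9%), 4 of them higher in stop clonotypes (9.3%) and 8 lower (18.6%). The planned TMM normalization gave 2 higher and 29 lower of 43. It shifted the log2 differences of all J genes by a median of -0.92, and DESeq2 shifted them by -0.90 with 2 higher and 24 lower. Shares sum to the same total, so a raised share of TRAJ12 lowers those of the other genes, and the 8 lower calls carry that limit.

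TRAJ12 had the largest log2 fold difference of the genes higher in stop clonotypes. Its stop clonotypes numbered 3 and 6 at 1.5 months, 5, 11, 12 and 7 at 3 months, 6 and 8 at 5 months, and 6, 6, 5, 5 and 7 at 7 months, so no sample lacked them. They were 19.1% ± 6.52 of stop clonotypes per sample (SD, n = 13), against 4.02% ± 0.265 of functional clonotypes. The log2 fold difference was 2.24 (SE 0.195, edgeR adjusted p = 1.00e-25), with the higher share in stop clonotypes in 13 of 13 samples. In all, 2.69% of in-frame TRAJ12 clonotypes had a stop codon. Of the 87, 73 had 1 count and 4 had 10 or more, and in 76 the stop was in the J part. TRAJ33 had 30 stop clonotypes (0 to 4 per sample, median 2), at a log2 fold difference of 1.69 (SE 0.317, edgeR adjusted p = 2.95e-06). TRAJ26 had 37 (1 to 7 per sample, median 3), at 1.41 (SE 0.279, edgeR adjusted p = 9.02e-06). TRAJ22 had 32 (1 to 5 per sample, median 2), at 0.79 (SE 0.279, edgeR adjusted p = 0.0181), but its difference was -0.12 with TMM, -0.11 with DESeq2 and -0.03 without clonotypes within 2 mismatches of a larger functional one. Leaving out 1 sample ended the TRAJ22 call in 2 of 13 cases, with a log2 fold difference of 0.64 to 0.87 over the 13. TRAJ12 and TRAJ33 were the 2 genes called higher by each of the 3 scalings, and TRAJ26 was higher in each but called in 1.

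J gene use was also compared with a minimum count. Among clonotypes of 10 or more counts, of which 67 were stop clonotypes, 0 of 41 J genes passed by edgeR and 2 had an unadjusted p under 0.05. There the log2 difference of TRAJ12 was 0.51 (edgeR adjusted p = 0.794), below its value over all clonotypes, while that of TRAJ33 was 1.80 (edgeR adjusted p = 0.449), not below it. TRAJ26 was at 0.43 and TRAJ22 at 0.83. Without the stop clonotypes within 2 mismatches of a larger functional one, 1 of 43 J genes passed, TRAJ33 at 1.71 (edgeR adjusted p = 0.0482), while TRAJ12 was at 0.76 (edgeR adjusted p = 0.346). With 1 clonotype kept per group of near-identical stop clonotypes, 12 of 43 passed, and TRAJ12 was at 2.17.

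Fewer stop than functional clonotypes used TRAJ27, TRAJ39, TRAJ37, TRAJ43 and TRAJ50. TRAJ27 had 4 stop clonotypes in 2 samples, 0.871% of the set against 3.99% of functional clonotypes (log2 fold difference -2.19, SE 0.542, edgeR adjusted p = 0.000679). Both samples were at 3 months, and without replicate 1 or replicate 4 the log2 fold difference was -3.07 or -3.04. TRAJ37 had 5 (log2 fold difference -1.73, SE 0.519, edgeR adjusted p = 0.00652). TRAJ39 had 1 stop clonotype, in replicate 1 at 1.5 months, a share 0.0902 times that of functional clonotypes (exact 95% interval 0.00228 to 0.5001, counting error only, edgeR adjusted p = 0.000989). TRAJ43 had 2, in replicate 4 at 3 months and replicate 4 at 7 months, at 0.184 times the functional share (exact 95% interval 0.0223 to 0.660, edgeR adjusted p = 0.00672). TRAJ27, TRAJ37, TRAJ39 and TRAJ43 had stop clonotypes in 2, 5, 1 and 2 of 13 samples. They passed the filter on low counts through their functional clonotypes. Each of these 4 genes kept its call in each of the 13 fits without 1 sample. Without replicate 1 at 1.5 months TRAJ39 had no stop clonotype left, so that fit says nothing about the stability of its call. TRAJ50 had 0 of 459 stop clonotypes and 1.13% of functional ones, at least 1.73-fold lower with a floor of 3 clonotypes over all samples. It is among the lower calls, but it passed the filter on low counts only through its functional clonotypes. Nothing is concluded from the TRAJ50 call or from those of the 4 genes above. Among clonotypes of 10 or more counts TRAJ27, TRAJ39, TRAJ37 and TRAJ43 had 2, 1, 2 and 1 stop clonotypes, and none passed.

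Germline stop codons contributed little. Of 60 annotated J genes 45 had the phenylalanine or tryptophan motif that sets the reading frame, and only TRAJ54, an annotated pseudogene, had a stop codon in that frame. It had 0 clonotypes of any class. TRAJ41, which lacks the motif and is annotated as a gene, has a TAG at position 13 in the frame set by its 3′ end, and it had 0 functional, 6 out-of-frame and 0 stop clonotypes. TRAJ3, TRAJ20, TRAJ36, TRAJ46, TRAJ55, TRAJ60 and TRAJ61 also have a stop codon in the frame set by the 3′ end, and each had 0 stop clonotypes. TRAJ41 lies at chr14:54176271-54176325 of GRCm38, and its sequence is shown with its TAG in capitals.
TRAJ41: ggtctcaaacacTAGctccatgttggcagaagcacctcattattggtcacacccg
Of 102 V genes whose germline CDR3 end could be placed, TRAV9N-1 was the one with a germline stop codon in the frame of the deposited CDR3. It is annotated as a pseudogene at chr14:53101801-53102265, and it had 6 functional, 5 out-of-frame and 4 stop clonotypes. The V end is given below with its germline TGA, followed by the largest of the 4, which had 67 counts in replicate 5 at 7 months and no inserted base.
TRAV9N-1 germline CDR3 end: tgtacttctgtgctgTGAgcg
TRAV9N-1 to TRAJ22: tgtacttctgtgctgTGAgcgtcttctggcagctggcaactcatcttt
The others had 32, 2 and 1 counts, in replicate 1 at 5 months and in replicates 3 and 5 at 7 months. The same germline end holds a later TGT, and in the frame of that codon the TGA is not read. The TRAV9-1 and TRAV9-4 stop clonotypes examined open their CDR3 with the bases that follow from such a TGT. Whether TRAV9N-1 has a germline stop, and whether these 4 are in frame, thus rests on the deposited start of the CDR3.

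The 459 clonotypes used 80 V genes and 42 J genes. V genes were compared by family, since duplicated mouse TRAV genes are near-identical and reads may be split between them. Of 17 families tested, 5 had an edgeR adjusted p under 0.05 (29.4%), 3 higher in stop clonotypes (17.6%) and 2 lower (11.8%). TMM gave 0 higher and 3 lower, and DESeq2 0 higher and 1 lower, with a median shift of all families of -0.38 and -0.40. TRAV7, the most used family of functional clonotypes, made up 11.8% ± 5.61 of stop and 18.8% ± 0.708 of functional clonotypes (SD, n = 13). Its log2 fold difference was -0.66 (SE 0.183, edgeR adjusted p = 0.00592), and it was lower in stop clonotypes in 11 of 13 samples. TRAV17 had 0 stop clonotypes against 1.01% of functional ones, at least 1.55-fold lower with a floor of 3 clonotypes. It is the other lower call, but it passed the filter on low counts only through its functional clonotypes. Nothing is concluded from the TRAV17 call. TRAV15 had 14 stop clonotypes, at a log2 fold difference of 1.37 (SE 0.486, edgeR adjusted p = 0.0305). TRAV9 had 38, at 0.74 (SE 0.300, edgeR adjusted p = 0.0477). TRAV3 had 43, at 0.72 (SE 0.281, edgeR adjusted p = 0.0477). Replicate 3 at 3 months held 13 of the 43 TRAV3 clonotypes and every other sample 0 to 4. Without that sample the difference was 0.36 (edgeR adjusted p = 0.641), and with 1 clonotype per near-identical group it was 0.55 (edgeR adjusted p = 0.163). Leaving out 1 sample ended the call of TRAV15 in 5 of 13 cases, those of TRAV3 and TRAV9 in 9 each and that of TRAV17 in 1, and TRAV7 kept its call in all 13. Without 1 sample the log2 fold difference was 1.18 to 1.52 for TRAV15 and 0.57 to 0.89 for TRAV9. Among clonotypes of 10 or more counts 0 of 16 families passed and 2 had an unadjusted p under 0.05, while the log2 fold differences were 2.50 for TRAV15, 1.02 for TRAV3, 1.05 for TRAV9 and -0.77 for TRAV7, with 4, 7, 4 and 7 stop clonotypes.

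Time after 4-OHT was considered next, to see whether nonproductive in-frame clonotypes changed as the rescued cells persisted. The 1.5-month samples served as the reference for 3, 5 and 7 months, and the exact permutation p, two-sided, took the maximum over those 3 comparisons in each of the 540540 assignments of samples to time points. The number of stop clonotypes was 39.0 ± 4.24 (SD, n = 2) at 1.5 months, 38.5 ± 3.00 (n = 4) at 3 months, 28 in both samples at 5 months and 34.2 ± 4.15 (n = 5) at 7 months. At 5 months there were 11 fewer (-11, exact permutation p = 0.0260), and Benjamini-Hochberg adjustment over all 15 comparisons gave 0.390. The exact permutation p was 0.162 without replicate 2 at 1.5 months and 0.0919 without either sample at 5 months. Total clonotypes were also fewer, with 6183 and 5532 at 5 months against 9103 and 7493 at 1.5 months. As a share of α-chain clonotypes, stop clonotypes were 0.478% ± 0.117 (SD, n = 2) at 1.5 months, 0.529% ± 0.0724 (n = 4) at 3 months, 0.480% ± 0.0377 (n = 2) at 5 months and 0.529% ± 0.0696 (n = 5) at 7 months. Its largest difference from 1.5 months was 0.0509 percentage points, at 7 months (exact permutation p = 0.737), within the pooled SD of 0.0747. Without replicate 1 or replicate 2 at 1.5 months, the 7-month difference was -0.0317 or 0.133 percentage points, respectively. With at least 2 counts it was -0.0205, so its direction is not settled.

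The share of counts followed the large clonotypes. It was 0.0795% and 0.0640% at 1.5 months, 0.0767%, 0.0219%, 0.0385% and 0.104% at 3 months, 0.0267% and 0.0251% at 5 months, and 0.0804%, 0.0280%, 0.0705%, 0.0438% and 0.0726% at 7 months. Both samples at 5 months lay below all samples at 1.5 and 7 months, while those at 3 months spanned the other time points. Relative to 1.5 months the share differed by -0.0458 percentage points at 5 months (exact permutation p = 0.261). At 7 months it differed by -0.0127 percentage points (p = 0.846 by the same exact test). Stop clonotypes of 10 or more counts numbered 7 and 7 at 1.5 months, 6, 4, 4 and 9 at 3 months, 2 and 3 at 5 months, and 6, 2, 6, 5 and 6 at 7 months. For these the 5-month difference was -4.50 clonotypes (exact permutation p = 0.0786).

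Features of the stop clonotypes were compared in the same way. Mean inserted bases were 3.63 ± 1.53 (SD, n = 2), 2.96 ± 0.341 (n = 4), 2.30 ± 1.14 (n = 2) and 3.45 ± 0.975 (n = 5) at 1.5, 3, 5 and 7 months, and the smallest exact permutation p was 0.357, at 5 months. With at least 2 counts the difference at 5 months was -1.92 bases (exact permutation p = 0.0259). Stops that touched an inserted base were 30.8% ± 0.281, 33.1% ± 10.6, 12.5% ± 2.53 and 26.7% ± 9.14, with a smallest exact permutation p of 0.139 at 5 months. Correlations with months over the 13 samples were computed for 5 measures. The strongest, for the number of stop clonotypes, had a Pearson's r of -0.475 (permutation p = 0.104, adjusted p = 0.521) and a Spearman's rho of -0.521 (permutation p = 0.0711, adjusted p = 0.356). Without both samples at 1.5 months, the farthest from the median month, r was -0.378 (permutation p = 0.252).

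Segment use of stop clonotypes was compared between 7 and 1.5 months without a filter on low counts, since no segment passed it. Of 18 V families 0 had an edgeR adjusted p under 0.05 (0%), 0 had an unadjusted p under 0.05, and DESeq2 called 0. The smallest unadjusted p was that of TRAV8, which had 0 stop clonotypes in both samples at 1.5 months and 0, 2, 0, 2 and 0 at 7 months. Of 42 J genes 1 passed (2.38%). TRAJ21 had 3 and 5 stop clonotypes at 1.5 months, and 0, 0, 0, 0 and 1 at 7 months, a log2 fold difference of -3.50 (SE 1.02, edgeR adjusted p = 0.0291). It also had 2, 0, 1 and 0 at 3 months and 0 and 1 at 5 months. Leaving out either sample at 1.5 months, or any of replicates 1 to 4 at 7 months, ended the call, with edgeR adjusted p of 0.0564 to 0.705. The log2 fold difference without 1 sample was -4.89 to -3.20, and DESeq2 called 0 J genes.

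Stop clonotypes were nearly all seen in a single sample. Counted by V gene, J gene and nucleotide sequence, the 459 were 455 distinct clonotypes, of which 4 were found in 2 samples. The share of a sample's stop clonotypes found in another sample was 1.73% ± 2.70 (SD, n = 13), against 24.4% ± 4.22 of its functional clonotypes. It was lower in 13 of 13 samples, by 22.7 percentage points (exact permutation p = 0.000244, adjusted p = 0.000488), and 8 of 13 samples shared none. The TRAV1 to TRAJ27 clonotype shown above had 179 counts in replicate 4 at 3 months and 1 count in replicate 1. The other named repeats were found in replicate 4 at 3 months and replicate 1 at 5 months, and their stop codons were in the V part and in inserted bases.
TRAV12D-2 to TRAJ34: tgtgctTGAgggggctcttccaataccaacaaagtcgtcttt
TRAV12-1 to TRAJ35: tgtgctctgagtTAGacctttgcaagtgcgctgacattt
The first had 86 counts at 3 months and 1 at 5 months, and the second had 52 and 2. This pair of samples also shared 707 functional clonotypes, 6.24% of all those found in either, the highest value of any pair.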

How the data were processed

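The 13 libraries were made by 5′ RACE of Trac with a template-switch oligonucleotide that carries random bases, and read on a MiSeq. Per the labels and the study's methods, the authors aligned reads and assembled clonotypes with MiXCR, corrected frequencies with VDJtools and used build GRCm38. A later VDJtools step removed nonfunctional clonotypes, and the deposited tables still hold them. The deposited counts per clonotype were made by the authors in that way, and whether they are reads or molecules is not given in the sources used here, so intervals and floors cover counting error only. The deposited fraction, which the authors computed as the share of a clonotype in its library, was not used in tests. File totals ranged from 509818 to 936831 counts, and shares here are of TRAV to TRAJ rows.

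Clonotypes were classed, placed on GENCODE M21 germline segments and compared with Python 3.11.15, numpy 2.4.6, pandas 2.3.3 and scipy 1.17.1. Exact permutation tests over samples were two-sided. Trends used 100000 permutations. Segment use was tested on numbers of clonotypes with edgeR 4.0.16 (quasi-likelihood, sample as covariate for stop against functional, filterByExpr, Benjamini-Hochberg) in R 4.3.3, with DESeq2 1.42.0 as an alternative. TMM was planned. After results of both scalings had been seen, library totals were reported in its place, because a stop column holds only 28 to 42 clonotypes. Tested on simulated data, TMM called unchanged genes lower and library totals did not, but with some genes raised library totals called others lower too, less often than TMM.

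Named segments were those with up to 5 of the smallest adjusted p in each direction, genes with germline stops and, between 7 and 1.5 months, up to 3 with the smallest adjusted p or else the 1 with the smallest unadjusted p. The members and lists were chosen with earlier results of these data known. Alternatives were count minimums of 2 and 10, removal of stop clonotypes near a larger functional one, equal depth, other scales and denominators, the 2 groups alone, replicate blocks and leaving out each sample. The removal of clonotypes near a larger functional one applied to stop clonotypes only, and functional and out-of-frame clonotypes were kept. Removal within 2 mismatches, removal of clonotypes of over 20 inserted bases, inserted bases of clonotypes of 1 count alone, the minimum of 10 for segment use and 1 clonotype per near-identical group were chosen after seeing the data.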

Additional observations from a re-analysis of the deposited data

Results flagged for a closer look

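Values that stood apart from the other samples of their time point were sought in 24 sets of 4 or 5 samples, where chance gives about 1 in 20, and 2 were found. Replicate 2 at 7 months had 2 stop clonotypes of 10 or more counts, and the other 4 samples had 5 or 6. In replicate 4 at 3 months 7.32% of stop clonotypes, or 3 of 41, were found in another sample, against 2.44% to 2.86% in the other 3 samples.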

How the results depend on the processing

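Among the summary results, 498 alternative values kept their direction and call, 30 changed direction, 28 counts of calls moved by over 1.5 times, 12 lost and 4 gained a call. Some of the 498 could not change. Removing J genes with a germline stop removed 0 clonotypes. Tests of the 2 groups alone allow no exact permutation p below 0.0667 at 3 months and 0.333 at 5 months. For the named segments 250 values kept direction and call, 83 lost a call and 3 changed direction. The stop clonotypes were smaller, and less often found in another sample, than functional ones under every alternative run. Their mean number of inserted bases was above the functional mean under each alternative. Among clonotypes of 1 count it was not distinguishably so, with stop clonotypes higher in 6 of 13 samples. The cause of the changes below was not tested. The fall in number at 5 months was -6.00 with at least 2 counts, -4.50 with at least 10, -8.50 without clonotypes 1 mismatch from a larger functional one, and -9.07 at equal depth (509669 counts), with an exact permutation p of 0.0541 to 0.173. With only the samples of both groups it stayed at -11.0, and the exact permutation p of 0.333 is the smallest that 2 against 2 samples allow, so it says nothing about stability. The number at 3 months was 1.25 higher without clonotypes at 1 mismatch. The share of clonotypes at 3, 5 and 7 months differed by -0.00565, -0.0545 and -0.0205 percentage points with at least 2 counts, and by -0.00683, -0.0581 and -0.00798 with at least 10. Without clonotypes within 2 mismatches it differed by -0.0856 at 5 and -0.0193 at 7 months, and at equal depth by -0.00537 at 3 months. Inserted bases with at least 2 counts differed by 0.0125 at 3 months, -1.92 at 5 (exact permutation p = 0.0259) and 0.243 at 7, and with at least 10 counts by 1.06 at 3 and 0.259 at 7. Without clonotypes of over 20 inserted bases they differed by 0.217 at 7 months. Among clonotypes of 1 count, stop clonotypes differed by 0.364 inserted bases from functional ones (exact permutation p = 0.318) and by -0.0300 from out-of-frame ones (exact permutation p = 0.937). Stops that touched inserted bases differed by -2.16 percentage points at 3 months with at least 2 counts and 3.90 at 7 with at least 10. The CDR3 of stop clonotypes exceeded the functional one by 0.401 codons with at least 2 counts (exact permutation p = 0.0269) and 0.630 with at least 10. It did so by 0.659 without stop clonotypes within 2 mismatches (exact permutation p = 0.00244). That removal left functional clonotypes whole, so nothing is concluded from the last value.

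Of V families 3 passed with TMM, 1 with DESeq2, and 0 with at least 2 counts (3 at an unadjusted p under 0.05), 0 with at least 10 counts (2 unadjusted) and 0 of 57 single V genes (8 unadjusted) by edgeR. Of J genes 31 passed with TMM, 26 with DESeq2, 3 with at least 2 counts, 0 with at least 10 (2 unadjusted) and 1 without clonotypes within 2 mismatches. TRAJ22 was at -0.12 with TMM, -0.11 with DESeq2 and -0.026 without clonotypes within 2 mismatches. Between 7 and 1.5 months 0 J genes passed with DESeq2, with at least 2 counts or without clonotypes at 1 mismatch. The filter on low counts left no segment in that comparison and has no value there. Removing J genes with a germline stop removed 0 clonotypes.

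Leaving out 1 sample in turn gave differences in number of -3.50 to 2.50 at 3 months, -14.0 to -8 at 5 and -7.80 to -1.80 at 7. It gave differences in the share of clonotypes of -0.0319 to 0.133, -0.0810 to 0.0840 and -0.0317 to 0.133, in the share of counts at 3 months of -0.0260 to 0.00134, in inserted bases of -1.76 to 0.402 at 3 months, -2.41 to -0.252 at 5 and -1.26 to 0.899 at 7, and in stops that touched inserted bases at 3 months of -1.27 to 6.16. Inserted bases exceeded those of out-of-frame clonotypes by 0.494 to 0.783. V families called numbered 1 to 5, J genes 11 to 13, and J genes between 7 and 1.5 months 0 to 1.

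Samples with the same replicate number did not deviate together. The correlation of their deviations was -0.339 to 0.233 over 5 measures, and that of J gene shares exceeded 0.1 in 7 of 14 pairs. With the replicate block (2304 arrangements) the 5-month difference in number stayed at -11.0 (exact permutation p = 0.0243). The 7-month difference in number was -7.50 (exact permutation p = 0.0729), against -4.80 without the block. Under the block inserted bases at 7 months differed by 0.0737, and 0 J genes passed between 7 and 1.5 months. Depth limits what can be said of the stop clonotypes, since 347 of 459 rest on 1 count.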
